A study of Danio rerio with 6 samples.

Results

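Aquaporins are membrane channels through which water crosses cell membranes along an osmotic gradient, and some members also pass glycerol, urea, ammonia, carbon dioxide or hydrogen peroxide. Water-selective channels such as Aqp1a.1, aquaglyceroporins such as Aqp3a, the aquaporin-8 type and the unorthodox members of inner membranes form separate branches of the family. Iridophores are reflective pigment cells whose membrane-bound organelles contain purine crystals. The rows described here were all those of a deposited count table whose gene symbol starts with aqp and a digit, which gave 12 of 11016 rows. The starting gene, aqp1a.1, was picked from results of the comparison reported here. The levels and fold changes of the 12 rows are therefore a description, and no test of single rows is given. Counts of rows called by the fit of all genes appear below, and nothing is read from them.

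Gene expression was measured by bulk MARS-seq, which tags the 3′ ends of polyadenylated transcripts, in cells sorted by flow cytometry from zebrafish larvae at 5 days post fertilization. The first group is iridophores, sorted by the red signal of the transgene Tg(pnp4a:PALM-mCherry), and the second, the control, is a general cell population. Both groups came from larvae positive for that transgene, their genotype is labelled WT, and each holds 3 biological replicates of about 20000 cells. The reporter is driven by the promoter of pnp4a, so the sort selects cells in which that promoter is active, and the labels do not say whether such cells were kept out of the control. The control is a mixture of larval cell types whose make-up the labels do not give, nor do they say how many larvae were pooled per replicate.

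Total counts were 616439 to 1686552 in the iridophore libraries and 1612637 to 3282480 in control cells libraries. A count of 3, taken as the floor, stood for 1.69 to 5.50 CPM (counts scaled to a common library size) in the iridophore libraries and for 0.897 to 1.79 CPM in those of the control. This covers counting error only. The gene behind the reporter, pnp4a, had 1801, 2708 and 2710 CPM in iridophores against 9.27, 17.3 and 20.5 CPM in control cells. Of 21 iridophore marker genes, 14 were tested, 13 were higher and 0 were lower (edgeR adjusted p under 0.05), and their summed level was 4242 to 6844 CPM in iridophores and 124 to 192 CPM in control cells. Over all 6849 tested genes 22.1% were higher and 17.8% lower, the shares against which each marker list below is read. The library names give replicate 1 of each group another ending than replicates 2 and 3. Values within that division are given for aqp1a.1, aqp3a, aqp8a.1, aqp8a.2 and aqp8a.2_1.

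RefSeq lists 15 zebrafish symbols of this form, of which 10 had a row here. The other 5 (aqp1a.2, aqp3b, aqp4, aqp9b and aqp10a) were not analysed here. The remaining 2 of the 12 rows, aqp8a.1_1 and aqp8a.2_1, carry a numeric suffix, and reads of near-identical copies may have been divided between such rows, so each is also given summed with its plain row. In the RefSeq annotation of the GRCz12tu assembly, aqp8a.2 and aqp8a.1 are neighbouring protein-coding genes, with the globin gene hbae5 on the other side of aqp8a.2, and aqp1a.1 neighbours aqp1a.2. The tables used here hold no sequences, so none are shown.

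The summed aquaporin level was of similar size in both groups, but its make-up was not. The 12 rows together had 1361, 1321 and 1164 CPM in iridophores against 1195, 1098 and 1060 CPM in control cells, so the groups overlapped. In iridophores aqp1a.1 supplied 41.3%, 65.5% and 62.5% of these counts, and in control cells 4.78%, 3.14% and 3.19%. The aquaporin-8 rows together supplied 49.4%, 23.8% and 24.6% in iridophores, against 81.6%, 79.2% and 79.1% in control cells. The aquaglyceroporins held 7.22% ± 0.337 in iridophores and 7.47% ± 1.2 in control cells (SD, n = 3 each). Without aqp1a.1 the remaining 11 rows had 799, 456 and 436 CPM in iridophores and 1138, 1064 and 1026 CPM in control cells. Iridophore replicate 1 stood apart from the other iridophore libraries in its lower aqp1a.1 share and its higher aquaporin-8 share.

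**Figure D1:**
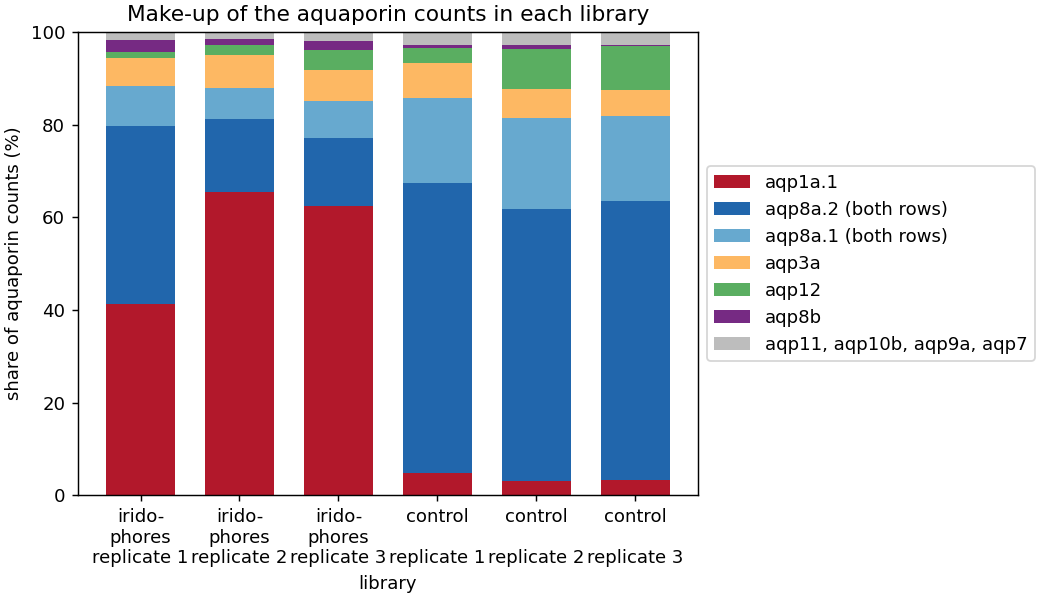
Share of all aquaporin counts (y axis, percent) held by each aquaporin in each of the 6 libraries (x axis), with suffixed rows added to their plain rows. The aqp1a.1 segment takes 41.3% to 65.5% in iridophores and 3.14% to 4.78% in control cells, where the aqp8a.2 segment is the main one.

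The water-selective channel gene aqp1a.1 was the most abundant aquaporin of iridophores. Aqp1a.1 is a zebrafish ortholog of mammalian aquaporin-1, and in zebrafish it is known from red blood cells and vascular endothelium, where it passes water and carbon dioxide. It had 562, 865 and 728 CPM in iridophores against 57.1, 34.5 and 33.8 CPM in control cells. Every iridophore library was far above every control library. The means were 718 ± 152 CPM in iridophores and 41.8 ± 13.3 CPM in control cells (SD, n = 3 each), a 17.2-fold difference, and the fitted log2 fold change was 4.09 (SE 0.29). By mean CPM the gene ranked 225 among all 11016 rows in iridophores and 1875 in control cells. Its fitted log2 fold change ranked 249 among the 6849 tested genes. Within replicate 1 alone the log2 ratio was 3.3, and the fit of replicates 2 and 3 alone gave 4.51.

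**Figure D2:**
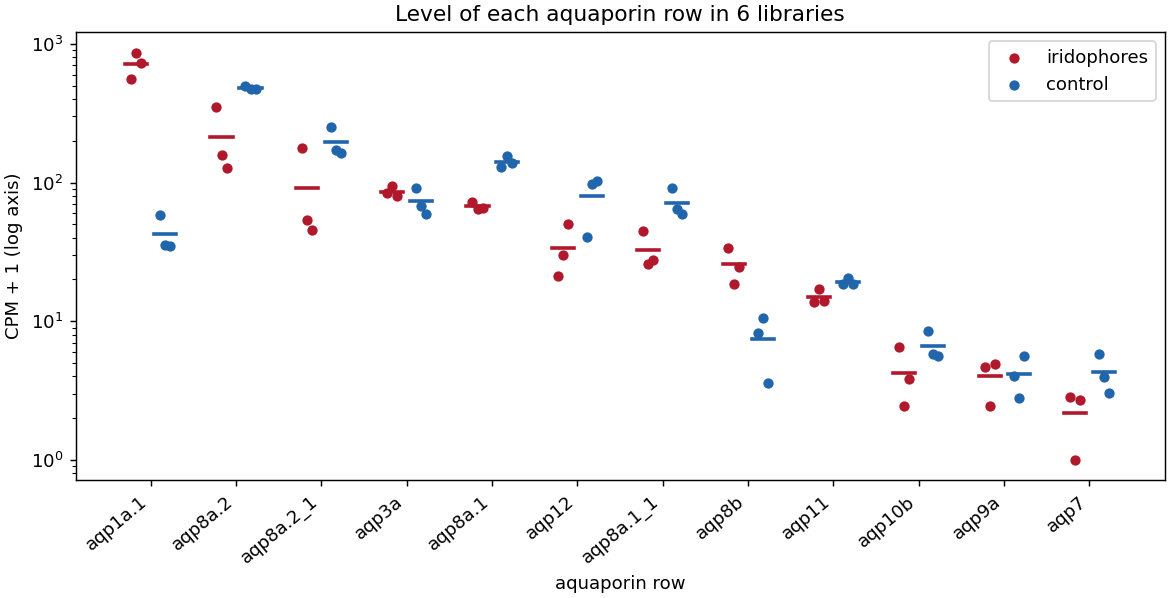
CPM plus 1 on a log axis (y) for the 12 aquaporin rows (x), with a point for each library and a bar at the group mean, iridophores on the left and control on the right of each pair. The aqp1a.1 points lie at 562 to 865 CPM in iridophores and 33.8 to 57.1 CPM in control cells, and those of aqp3a overlap.

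Markers of the other cell types known for aqp1a.1 are set beside it here, and their part in its level was not tested. Of 18 erythrocyte genes, 10 were tested, 6 were lower, 1 was higher (creg1, which also acts in lysosomes) and 3 were not called. Over all tested genes 17.8% were lower and 22.1% higher. The embryonic globin gene hbbe3, too low to be tested, had 0 counts in every iridophore library and 2, 5 and 6 in those of the control. The summed level of the erythrocyte list was 911 to 1021 CPM in iridophores and 1694 to 2258 CPM in control cells. The groups did not overlap, and a two-sided exact permutation test of the log2 sums gave p = 0.1, the lowest value possible for 3 libraries against 3 (0.136 when adjusted by Benjamini-Hochberg over 15 marker lists). The same p came out for 11 of the 15 lists. Set per 1000 CPM of the erythrocyte list, aqp1a.1 had 573, 848 and 799 CPM in iridophores against 31.2, 20.4 and 15 CPM in control cells. Endothelial genes were near the floor, with 7 of 21 present as rows, 1 tested and 0 called, and a summed level of 20.3 to 27.5 CPM in iridophores and 16.5 to 28.2 CPM in control cells. Within that list egfl7, a gene of vessel endothelium that was too low to be tested, had 3, 4 and 10 counts in iridophores and 1, 1 and 3 in control cells. In the other direction sox18, also too low to be tested, had 0, 1 and 1 counts in iridophores and 5, 4 and 8 in control cells. By mean CPM egfl7 and sox7 were higher in iridophores, and sox18, pecam1, clec14a, aplnra and esama were lower. The red cell channel gene rhag, described with the gas channels, was higher in iridophores, as aqp1a.1 was. Against the iridophore marker list, aqp1a.1 had 133, 134 and 106 CPM per 1000 CPM in iridophores and 459, 197 and 176 CPM per 1000 CPM in control cells. That list includes pnp4a, whose promoter drives the sorted reporter. By group means pnp4a held 2406 of 5847 CPM of the list in iridophores and 15.7 of 164 CPM in control cells. The divisor thus depends on the sort, and nothing is read from the difference between the groups on this scale. These ratios to marker lists were chosen after the values were seen. In bulk samples, fewer cells of a type and less RNA per cell cannot be told apart.

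The aquaporin-8 genes went in both directions. Mammalian aquaporin-8 passes water, ammonia and hydrogen peroxide. The gene aqp8a.2 was the most abundant aquaporin of the control, with 348, 157 and 127 CPM in iridophores and 497, 473 and 475 CPM in control cells. No iridophore library reached the control range, and iridophore replicate 1 was the nearest to it. The log2 fold change was -1.21 (SE 0.34), and -1.79 without iridophore replicate 1. Within replicate 1 alone the log2 ratio was -0.51, and the fit of replicates 2 and 3 alone gave -1.78. The suffixed row aqp8a.2_1 had 176, 52.3 and 44.4 CPM in iridophores and 252, 171 and 164 CPM in control cells. There the groups overlapped through iridophore replicate 1, and the log2 fold change was -1.17 (SE 0.46), or -2.05 without that library. The log2 ratio within replicate 1 was again -0.51, against -1.84 in the fit of replicates 2 and 3. Both rows summed gave 302 ± 194 CPM in iridophores and 677 ± 62.5 CPM in control cells (SD, n = 3 each). For aqp8a.1 the values were 71.4, 63.9 and 64.7 CPM in iridophores and 128, 154 and 138 CPM in control cells, without overlap and with a log2 fold change of -1.07 (SE 0.20), or -1.20 in replicates 2 and 3 alone and -0.82 as the log2 ratio within replicate 1. Its suffixed row aqp8a.1_1 had 44.0, 24.7 and 26.4 CPM in iridophores and 90.3, 63.1 and 58.4 CPM in control cells, also without overlap (log2 fold change -1.21, SE 0.29).

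The third gene of this type, aqp8b, lay higher in iridophores. It had 33.0, 17.4 and 23.6 CPM in iridophores against 7.18, 9.52 and 2.56 CPM in control cells. The groups did not overlap, on 72 counts in all iridophore libraries and 45 in all control libraries. The log2 fold change was 1.91 (SE 0.44). By mean CPM aqp8b stood 8th among the 12 rows in iridophores and 9th in control cells, a minor member in both groups.

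The aqp8a.2 levels moved with the summed level of the intestinal marker list. Those of aqp8a.1 did so between the groups but less closely among the iridophore libraries. Of 20 intestinal genes 17 were tested, 12 were lower and 0 were higher by edgeR, and 16 were lower and 0 higher at an unadjusted p under 0.05 (over all tested genes 22.6% and 26.1%). Their summed level was 26787, 11490 and 10190 CPM in iridophores and 39062, 32804 and 32982 CPM in control cells, with iridophore replicate 1 again the nearest to the control. Per 1000 CPM of this list, the summed aqp8a.2 rows had 19.6, 18.2 and 16.8 CPM in iridophores against 19.2, 19.6 and 19.4 CPM in control cells. On that scale the groups overlapped, with a mean of 18.2 ± 1.4 in iridophores and 19.4 ± 0.224 in control cells (SD, n = 3 each). The scale leans on the gene fabp1b.1, which was not called (log2 fold change -0.68, edgeR adjusted p 0.218). By group means fabp1b.1 held 7044 of 16156 CPM of the list in iridophores and 11242 of 34949 CPM in control cells. How close the match is without that gene was not tested. The summed aqp8a.1 rows had 4.31, 7.71 and 8.94 CPM per 1000 CPM in iridophores and 5.58, 6.61 and 5.95 CPM per 1000 CPM in control cells. There the groups also overlapped, and within iridophores the value was lowest in replicate 1, where the list was highest. The summed aqp8a.1 level itself was also highest in that library, at 115, 88.6 and 91.1 CPM in iridophore replicates 1 to 3. It rose by less than the list did. The part of intestinal cells in the aqp8a differences was not tested.

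**Figure D3:**
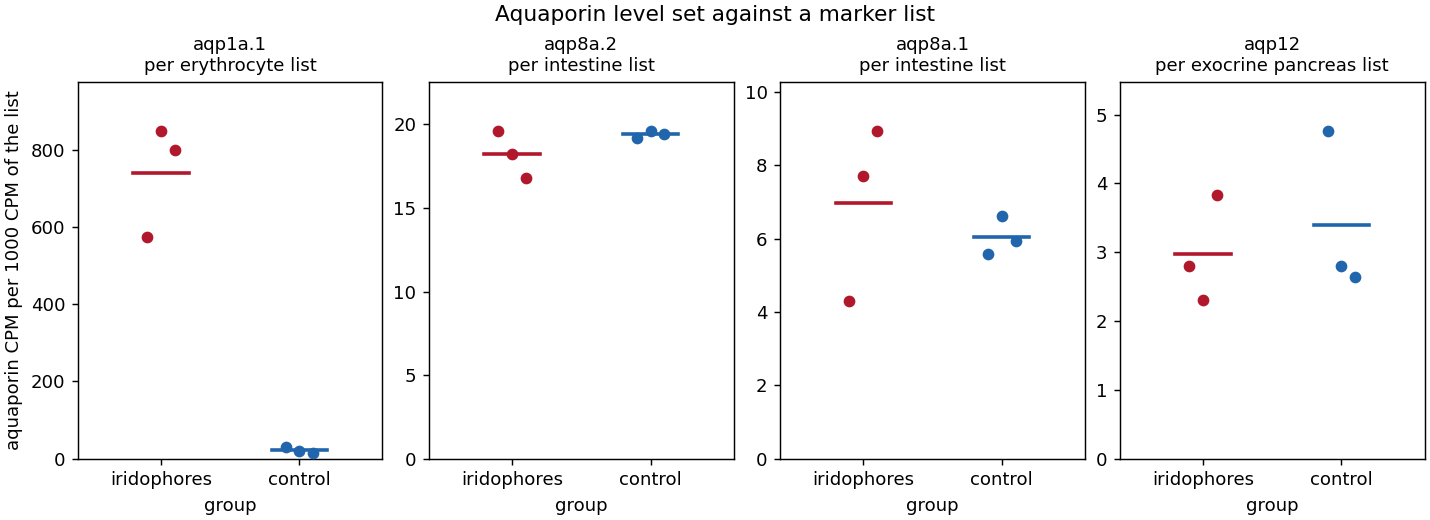
CPM of an aquaporin per 1000 CPM of a marker list (y axes, each from 0) in iridophores and control (x axes), with a point for each library and a bar at the mean. For aqp1a.1 against erythrocyte genes the groups lie far apart (573 to 848 in iridophores, 15 to 31.2 in control cells), whereas for aqp8a.2, aqp8a.1 and aqp12 against intestinal or exocrine pancreas genes they overlap.

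The division of counts between the plain and the suffixed rows set replicate 1 apart from replicates 2 and 3 in both groups. For aqp8a.2 the suffixed row held 33.6%, 25% and 25.9% of the counts of both rows in replicates 1 to 3 of the iridophores, and 33.6%, 26.6% and 25.6% in those of the control. For aqp8a.1 the shares were 38.1%, 27.9% and 29.0% in iridophores and 41.4%, 29.1% and 29.8% in control cells. In both genes the replicate 1 libraries of both groups lay above the other 4 libraries. The exact Clopper-Pearson 95% intervals of aqp8a.2 in control cells were 31.8% to 35.5% in replicate 1, 24.0% to 29.4% in replicate 2 and 23.2% to 28.1% in replicate 3. In iridophores the depth was lower, and the interval of replicate 1 (28.1% to 39.4%) overlapped that of replicate 2 (18.2% to 32.9%). Among 104 pairs of a plain row and a row ending in _1 with at least 20 counts in every library, 10 pairs (9.62%) had such a higher share in both replicate 1 libraries and 14 pairs (13.5%) a lower one. This division was noticed in the data, and its cause was not tested.

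**Figure D4:**
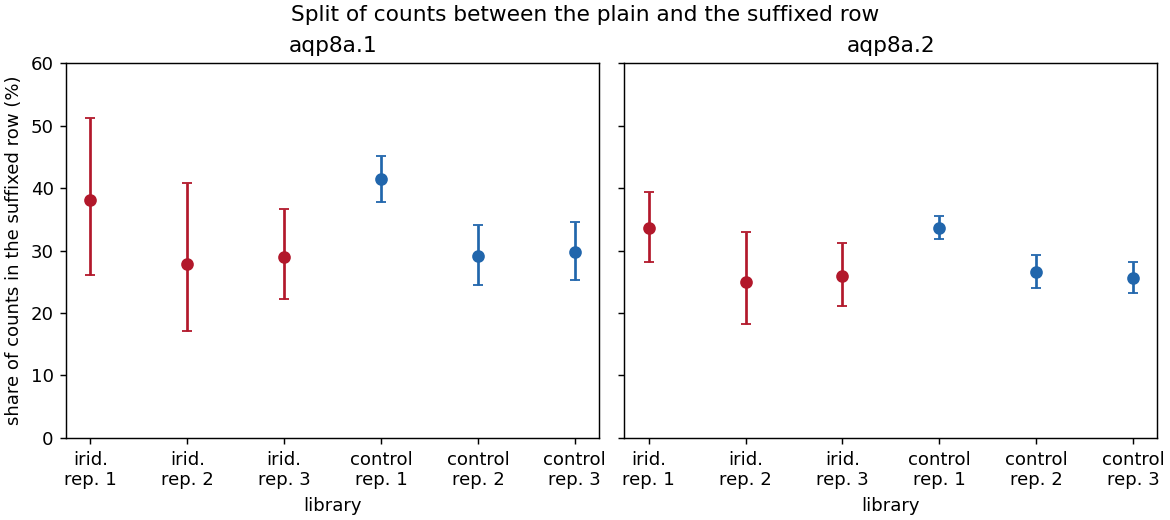
Share of counts in the suffixed row (y axis, percent of the plain and suffixed rows together) for aqp8a.1 and aqp8a.2 in each library (x axis), with exact 95% binomial intervals. The replicate 1 library of each group is the highest, at 38.1% and 41.4% for aqp8a.1 and 33.6% in both groups for aqp8a.2.

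Of the aquaglyceroporins, which pass glycerol besides water, aqp3a was the only one far above the floor. Aqp3a belongs to a channel type found in skin and gill epithelia of fish. It had 82.4, 92.9 and 79.3 CPM in iridophores against 90.3, 67.3 and 58.4 CPM in control cells. The groups overlapped through control replicate 1, and the log2 fold change was 0.23 (SE 0.23). For aqp3a the log2 ratio within replicate 1 was -0.12, and the fit of replicates 2 and 3 alone gave 0.42. The epidermal marker list gave 6542 to 10002 CPM in iridophores and 8214 to 8910 CPM in control cells, which overlapped too. Of its 15 tested genes 3 were higher and 4 lower, against 22.1% and 17.8% of all tested genes. The sums were 10002, 7052 and 6542 CPM in iridophore replicates 1 to 3, so the overlap came through replicate 1 alone. That overlap leaned on the gene icn, with 2169, 701 and 1377 counts in the same libraries (log2 fold change 2.85). By group means icn held 1922 of 7865 CPM of the list in iridophores and 266 of 8664.5 CPM in control cells. The genes aqp10b, aqp9a and aqp7 did not pass the filter on low counts. For aqp10b, known in mammals from the intestine, there were 3, 1 and 5 counts in iridophores and 25, 8 and 9 in control cells. The liver-type glycerol channel gene aqp9a had 2, 1 and 7 counts in iridophores and 10, 3 and 9 in control cells. For aqp7, which releases glycerol from fat cells in mammals, there were 1, 0 and 3 counts in iridophores and 16, 5 and 4 in control cells. The ratio of pooled CPM, iridophores over control, was 0.496 for aqp10b (exact 95% counting interval 0.212 to 1.03), 1.05 for aqp9a (0.445 to 2.32) and 0.370 for aqp7 (0.0937 to 1.07). These intervals cover counting error only. The CPM ranges overlapped for aqp10b and aqp9a, and for aqp7 they were apart, at 1.83, 0 and 1.69 CPM in iridophores and 4.79, 2.98 and 2.05 CPM in control cells, all of them within a few counts of the floor.

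The unorthodox members lie in inner membranes in mammals, aquaporin-11 in the endoplasmic reticulum and aquaporin-12 in acinar cells of the pancreas. The gene aqp12 had 20.2, 29.0 and 49.5 CPM in iridophores and 39.8, 97.0 and 101 CPM in control cells. The groups overlapped, because control replicate 1 lay below iridophore replicate 3, and the log2 fold change was -1.16 (SE 0.41). Exocrine pancreas genes had the same order of libraries in each group, with summed levels of 7190, 12565 and 12911 CPM in iridophores and 8355, 34699 and 38324 CPM in control cells. Of 15 tested pancreas genes 10 were lower and 0 were higher, against 17.8% and 22.1% of all tested genes. Per 1000 CPM of that list aqp12 had 2.80, 2.31 and 3.83 CPM in iridophores and 4.76, 2.80 and 2.64 CPM in control cells, which overlapped, and the part of pancreatic cells in the aqp12 values was not tested. The gene aqp11 had 12.8, 16 and 12.9 CPM in iridophores and 17.6, 19.6 and 17.4 CPM in control cells. Its groups did not overlap, but they lay close, with a log2 fold change of -0.40 (SE 0.28).

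Because transcripts were tagged at their 3′ ends, CPM was not divided by gene length when levels of different genes were set in order. Whether a count is a molecule or a read is not given in the sources used here. In iridophores aqp1a.1 was followed by aqp8a.2, aqp8a.2_1, aqp3a and aqp8a.1. The libraries of aqp1a.1 and aqp8a.2 did not overlap in range, while aqp8a.2 and aqp8a.2_1, and aqp8a.2_1 and aqp3a, did. In the control the order was aqp8a.2, aqp8a.2_1, aqp8a.1, aqp12, aqp3a, aqp8a.1_1 and, in 7th place, aqp1a.1. There the ranges of the leading 3 rows were apart from each other, those of aqp12, aqp3a and aqp8a.1_1 overlapped, and aqp1a.1 lay below aqp3a and aqp8a.1_1 and above aqp11 but overlapped aqp12, which it exceeded in control replicate 1. Of the 12 rows 9 passed the filter. At an edgeR adjusted p under 0.05 the fit placed 2 higher and 4 lower, against 22.1% higher and 17.8% lower (39.9% together) of all 6849 genes. Without iridophore replicate 2 the fit placed 2 higher and 2 lower, against 29.9% of 7364 tested genes called in either direction. CPM ranges were apart for 6 of the 9, against 51.8% of all tested genes. The rows were chosen with this comparison in view, so nothing is read from these counts.

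The lens aquaporins are named mipa and mipb and so fall outside the rows above. For mipb there were 3, 6 and 25 counts in iridophores and 64, 1 and 27 in control cells, with a log2 fold change of -0.18 (edgeR adjusted p 0.871), and mipa had at most 4 counts in iridophores and 9 in control cells. Of 13 tested lens genes, mainly crystallins, 8 were higher and 0 lower, against 22.1% and 17.8% of all tested genes. The summed level of the lens list was 1720 to 2621 CPM in iridophores and 115 to 1154 CPM in control cells.

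Genes that work beside aquaporins were compared by lists of general knowledge, each read against the 22.1% higher and 17.8% lower and the median log2 fold change of 0.01 over all tested genes. The list of carbonic anhydrases and Rh gas channels had 1 higher and 2 lower genes of 8 tested and a median of -0.52. The higher one was rhag, the Rh-associated ammonia and carbon dioxide channel of red cell membranes. It had 95.3, 107 and 84.4 CPM in iridophores against 0.598, 5.95 and 3.08 CPM in control cells. The log2 fold change of rhag was 5.07 (SE 0.49, edgeR adjusted p 4.215e-05). It was 4.35 when control replicate 1 was left out and 5.74 when control replicate 2 was. In the same libraries 6 of the 10 tested erythrocyte genes were lower, 1 was higher and 3 were not called. The anion exchanger gene of red cells, slc4a1a, was too low to be tested. It had 0, 1 and 3 counts in iridophores (mean 1.05 CPM) against 15, 12 and 8 in control cells (mean 5.24 CPM). The cytosolic carbonic anhydrase gene ca2 fell to 131 ± 41.4 CPM in iridophores, against 399 ± 9.16 CPM in control cells (SD, n = 3 each; log2 fold change -1.61, edgeR adjusted p 0.000696). The other lower gene was the ammonia channel gene rhcgb of ionocytes (log2 fold change -1.78, edgeR adjusted p 0.0233). Ionocyte markers had 251 to 265 CPM in iridophores and 445 to 479 CPM in control cells, with 5 of 7 tested genes lower and 0 higher. That list includes rhcgb itself among its lower genes. The sums lay mainly in the sodium pump subunit gene atp1a1a.1, with means of 219 of 258 CPM in iridophores and 368 of 462 CPM in control cells.

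Ion pumps and cotransporters set the gradients that water follows. Of 26 tested genes 5 were higher and 12 lower, with a median log2 fold change of -0.61. The chloride channel gene clcnk of kidney tubules and ionocytes fell to 1.83, 5.81 and 2.81 CPM in iridophores, against 32.0, 36.3 and 38.5 CPM in control cells (log2 fold change -3.37, edgeR adjusted p 0.000117). The sodium pump subunit gene atp1a1a.3 had a log2 fold change of -2.18 (edgeR adjusted p 0.00967). In the other direction clcn7, the chloride and proton exchanger of lysosomes, had 40.3, 47.9 and 42.7 CPM in iridophores against 6.28, 7.74 and 3.59 CPM in control cells (log2 fold change 2.88, SE 0.31, edgeR adjusted p 9.372e-05). Kidney tubule markers were at 316 to 409 CPM in iridophores and 761 to 856 CPM in control cells, with 3 of 10 tested genes higher and 3 lower. The gap in these sums lay mainly in the gene cdh17. It had a mean of 143 CPM in iridophores and 612 CPM in control cells, out of list means of 371 and 818 CPM. The part of kidney tubule cells in the falls was not tested.

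For glycerol handling, 1 of 8 tested genes was higher and 2 were lower, with a median of -0.27. The gene gpd1a, for the enzyme that interconverts glycerol 3-phosphate and dihydroxyacetone phosphate, had 25.6, 36.3 and 37.7 CPM in iridophores against 4.19, 2.98 and 5.13 CPM in control cells (log2 fold change 3.01, edgeR adjusted p 8.91e-05). Its paralogs gpd1b and gpd1c did not pass the test, at log2 fold changes of 0.02 and -0.50 (edgeR adjusted p 0.973 and 0.193). The glycerol kinase family gene gk5 had 13.4 ± 9.10 CPM in iridophores and 38.0 ± 4.93 CPM in control cells (SD, n = 3 each; log2 fold change -1.66, edgeR adjusted p 0.00756). The lipase gene pnpla3 had a log2 fold change of -0.79 (edgeR adjusted p 0.00947). Among 6 tested genes of cell volume and osmolyte control, 0 were higher and 2 were lower by edgeR, with a median of -0.21 and the same counts at an unadjusted p under 0.05. The kinase gene sgk1 had a log2 fold change of -0.66 (edgeR adjusted p 0.0391), a call that was lost when iridophore replicate 2, control replicate 2 or control replicate 3 was left out (edgeR adjusted p 0.112, 0.0834 and 0.102). The inositol transporter gene slc5a3b and the volume-regulated channel gene lrrc8aa were at log2 fold changes of 0.41 and 0.11 (edgeR adjusted p 0.265 and 0.899).

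**Figure D5:**
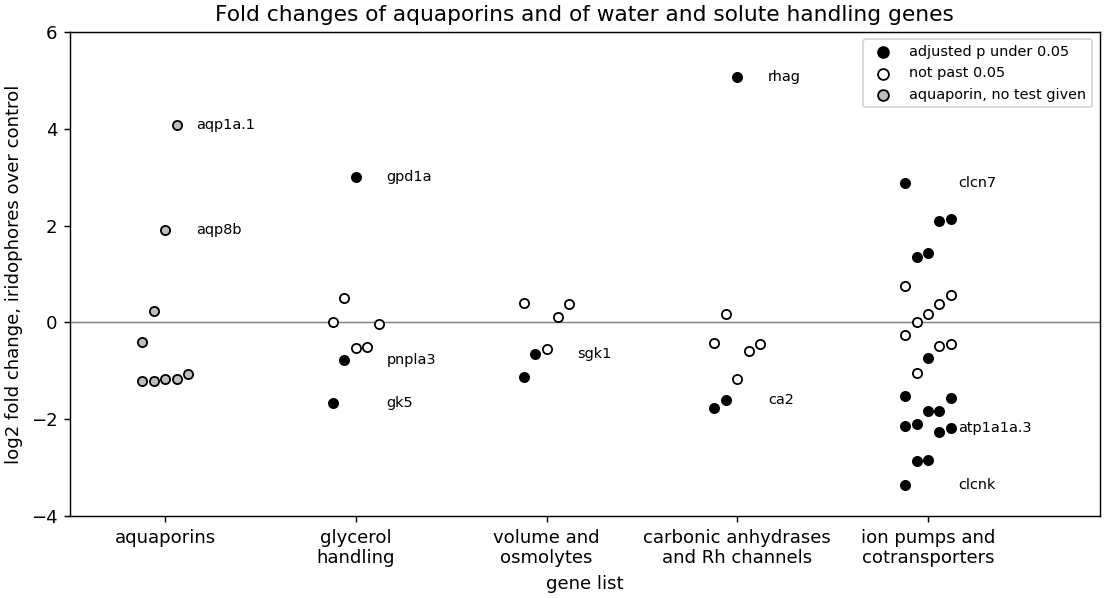
Log2 fold change, iridophores over control (y axis), of each tested gene in the aquaporin family and in 4 lists of water and solute handling genes (x axis). Filled points passed an adjusted p of 0.05, open points did not, and aquaporins are grey because no test of single rows is given. The highest points of their lists include rhag at 5.07, aqp1a.1 at 4.09 and gpd1a at 3.01.

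The genes whose levels over the 6 libraries were most like that of aqp1a.1 were hmgb2a, atp6v1f, sft2d1, lamtor5_1 and phyhd1, by Pearson r of log2 CPM among 4011 genes with at least 20 mean CPM in a group. The coefficients were 0.998 to 0.9995 over 6 libraries that fall into 2 groups, so they hold mostly the difference between the groups. Of the 4011 genes 510 (12.7%) had a coefficient above 0.95. For deviations from the group means, the coefficients of the named genes were 0.986, 0.962, 0.918, 0.966 and 0.899 in the order above. In each of them, as in aqp1a.1, replicate 1 was the lowest iridophore library and the highest control library. The genes were picked by the full coefficient, so nothing is read from this. The product of hmgb2a is a chromatin protein, that of atp6v1f a subunit of the V-ATPase proton pump, and that of lamtor5 a subunit of the Ragulator complex on lysosomes. For atp6v1f the levels were 117, 179 and 128 CPM in iridophores against 6.88, 3.57 and 3.08 CPM in control cells, and for hmgb2a 363, 444 and 403 CPM in iridophores against 123, 104 and 103 CPM in control cells.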

How the data were processed

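The deposited table holds whole-number raw counts per gene symbol, which the authors left without normalization. Per the submitters' processing notes the tools were cutadapt, STAR 2.5.2b, HTSeq and DESeq2 1.36.1, and the build was danRer11. Which annotation was used, whether molecular identifiers were counted and how genes were filtered is not given in the sources used here, and the lowest row maximum was 6 counts. Columns were matched to samples through the library names in the sample descriptions.

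Iridophores were compared with control in R 4.3.3 by the quasi-likelihood F test of edgeR 4.0.16, with TMM factors, the default filter (minimum count 10, minimum total 15) and group as the only term. This tested 6849 genes with 98.7% of the counts, with Benjamini-Hochberg adjustment of the p-values. CPM uses TMM-adjusted library sizes, and a standard error is the absolute log2 fold change over the root of F. Log2 ratios within replicate 1 add 0.5 counts. The fits were tested on simulated data.

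The aquaporin rows and the gene lists were chosen with earlier results of these data known. Genes outside the family were named by rule: up to 3 called genes per list with the highest absolute fold change and at least 20 mean CPM, and the 5 genes most like aqp1a.1. The genes rhcgb, slc4a1a, creg1, hbbe3, egfl7, cdh17, gpd1b, gpd1c, slc5a3b, lrrc8aa, mipa and mipb were named after their values were seen. So were icn, atp1a1a.1, fabp1b.1, sox7, sox18, pecam1, clec14a, aplnra and esama. Symbols were matched to RefSeq for names and neighbours alone.

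Alternatives were other scaling factors, DESeq2 1.42.0, limma-voom (limma 3.58.1), other filters, each library left out, and a term for the replicate number or for how the library name ends.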

Additional observations from a re-analysis of the deposited data

How the results depend on the processing

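Over 589 recomputed values, none changed sign among called ones. The number of genes called higher was 988 with a minimum count of 30 (fewer genes were tested), against 1513 in the main comparison, and it was 1248 to 1704 with 1 library left out. Over all settings the log2 fold change of aqp1a.1 was 3.86 to 4.51, and the value from replicates 2 and 3 alone, 4.51, moved by more than the spread between replicates (the cause was not tested). For the other aquaporins it was 1.51 to 2.11 in aqp8b, 0.04 to 0.42 in aqp3a, -1.20 to -1.05 in aqp8a.1, -1.48 to -1.03 in aqp8a.1_1, -1.79 to -0.97 in aqp8a.2, -2.05 to -0.82 in aqp8a.2_1, -1.70 to -0.96 in aqp12 and -0.50 to -0.36 in aqp11. Other aquaporin values also moved by more than that spread. In replicates 2 and 3 alone these were aqp8a.1 (-1.20) and aqp8a.2 (-1.78). Without iridophore replicate 1 they were aqp8a.2 (-1.79) and aqp8a.2_1 (-2.05). The mean share of aqp1a.1 was 51.9% to 64.0% in iridophores and 3.17% to 3.99% in control cells with 1 library left out. Several lists moved. With 1 library left out, volume and osmolyte genes gave 0 to 1 higher and 0 to 3 lower, carbonic anhydrases and Rh channels 1 to 4 lower, and ion pumps 3 to 5 higher. At an adjusted p under 0.01 these lists gave 0 lower, 1 lower and 3 higher. At that threshold 24.0% of all 6849 tested genes were called in either direction, against 39.9% under 0.05. Samples of the same replicate number deviated together with correlations of 0.315, 0.0710 and 0.175, so the number was not taken as a pairing. With it as a replicate block, 1584 genes were higher and 1387 lower, and aqp1a.1 was at 4.1. Replicate 2 of each group correlated best with replicate 3 of the other. The number of aquaporins called lower was 4 in the main comparison, 2 without iridophore replicate 2, and 5 with the replicate block, with 2 called higher in each. Of all tested genes 39.9%, 29.9% and 43.4% were called in either direction in these settings, so nothing is read from the aquaporin counts. Depth limits aqp7, aqp9a and aqp10b most.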
